A study of Mus musculus with 18 samples.

Results

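The Krüppel-like factors are transcription factors that bind GC-rich and CACCC sequences through C2H2 zinc fingers at the end of the protein. The genes described here are the 8 family members Klf2, Klf3, Klf4, Klf5, Klf6, Klf7, Klf10 and Klf13, taken by symbol from a table of 36655 gene symbols that holds 17 Klf genes. All 8 were found, and all 8 were tested in every comparison of blood cells described below. Their levels were measured by RNA sequencing in 18 mouse libraries.

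All libraries came from C57BL/6 mice grown wholly from induced pluripotent stem cells, and every group carries genomic copies of Oct4, Sox2, Klf4 and c-Myc that doxycycline switches on. The blood cell types were LT-HSC and ST-HSC, the long-term and short-term blood stem cells, and MP, the myeloid progenitors. The D group held 6 libraries from cells cultured for 2 or 4 days with doxycycline, 1 for each cell type and day. The N group held the same cell types and days cultured without it, also 6 libraries. The uncultured group held 1 library of each blood cell type. Fibroblasts gave an uncultured library and D libraries at 2 and 4 days, with no N culture. The label field for doxycycline reads yes in all 6 N libraries, against their titles and the series design, and the titles were used. Each condition was 1 library, so the p-values below rest on the spread among cell types and days, and nothing shows how far separate cultures or mice would differ. A blood library was amplified from 25 hand-picked cells, whereas fibroblast RNA was extracted in bulk, so lineage and library method cannot be told apart.

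Family members fall into groups by the partners they recruit. Klf2, Klf4, Klf5, Klf6 and Klf7 act mostly as activators, Klf3 represses through the corepressor CtBP, and Klf10 and Klf13 recruit the Sin3 corepressor complex. In mouse embryonic stem cells Klf2, Klf4 and Klf5 share targets and together hold the self-renewing state, and Klf4 is one of the reprogramming factors. In blood, Klf2 is known for quiescence and trafficking of lymphocytes, Klf4 for monocyte differentiation, and Klf6 and Klf10 for early responses to growth factors and TGF-β.

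The shared zinc finger domain shows how closely related the 8 genes are, and therefore where reads of one could be taken for another. The sequences below code for the middle finger of the domain, read from GENCODE M21 transcripts. Capitals mark the 28 of 69 bases that are the same in all 8 genes.
Klf2: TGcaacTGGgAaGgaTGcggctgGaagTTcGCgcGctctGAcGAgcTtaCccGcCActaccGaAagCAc
Klf3: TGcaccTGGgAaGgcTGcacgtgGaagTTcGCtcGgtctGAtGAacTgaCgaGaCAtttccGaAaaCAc
Klf4: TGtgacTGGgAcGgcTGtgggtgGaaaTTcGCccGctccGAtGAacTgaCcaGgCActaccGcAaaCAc
Klf5: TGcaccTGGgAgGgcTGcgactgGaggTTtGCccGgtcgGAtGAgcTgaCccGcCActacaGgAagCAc
Klf6: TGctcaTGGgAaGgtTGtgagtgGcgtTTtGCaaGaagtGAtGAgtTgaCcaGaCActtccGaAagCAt
Klf7: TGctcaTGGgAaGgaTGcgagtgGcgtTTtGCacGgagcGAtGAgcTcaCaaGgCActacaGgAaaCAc
Klf10: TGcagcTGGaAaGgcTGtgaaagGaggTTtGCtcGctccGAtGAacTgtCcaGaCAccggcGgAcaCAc
Klf13: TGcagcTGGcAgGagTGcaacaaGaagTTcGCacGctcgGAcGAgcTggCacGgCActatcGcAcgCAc
Over the 243 bases that code for the whole finger domain, the 28 pairs of genes shared between 57.2% (Klf5 and Klf10) and 81.1% (Klf6 and Klf7) of bases. Klf2 and Klf4 were next, at 78.2%. The longest run of identical bases between any pair of these transcripts was 26, between Klf6 and Klf7.

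Label checks used genes outside the family. Sox2, one of the induced factors, stood at 15.6 to 61.3 FPKM (fragments scaled by transcript length and mapped fragments) in blood cells given doxycycline, against 0 to 1.50 FPKM in N, which follows the titles. The other induced factors did not separate D from N this way. Oct4 (Pou5f1) reached 2.34 FPKM at most in D blood libraries, with 3 of the 6 listed at 0, and was listed at 0 in every N library. Myc had 45.5 to 189 FPKM in D and 102 to 319 FPKM in N, and the levels of Klf4 are given below. Col1a1, a fibroblast collagen, stood at 258 to 5436 FPKM in fibroblasts and at 1.10 FPKM or less in blood libraries. Marker sums also differed between blood libraries of the same group. Uncultured LT-HSC carried 42437 FPKM summed over 8 granule and myeloid progenitor genes, close to the 59369 of uncultured MP and far above the 1631 of uncultured ST-HSC. Calls against uncultured cells are therefore also given without LT-HSC. The N library of MP at day 4 had 2150 FPKM summed over 7 macrophage markers, against 129 to 393 FPKM in the other N libraries. In N libraries of LT-HSC, 7 erythroid markers summed to 1445 (day 2) and 1556 FPKM (day 4), against 7.23 to 351 in other N libraries. Their sums over the 8 granule and myeloid progenitor genes were 140 and 185 FPKM, against 5661 to 35015 in other N libraries.

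Uncultured stem cells held far more Klf RNA than any other library. Summed over the 8 genes, the level was 611 FPKM in uncultured LT-HSC, 672 in uncultured ST-HSC and 157 in uncultured MP. The D libraries had sums of 64.3 to 113 FPKM with a median of 75.6, and the N libraries sums of 16.6 to 68.0 with a median of 34.5. Fibroblasts had 150, 109 and 86.2 FPKM when uncultured and at 2 and 4 days of D culture. In each blood cell type, both D and both N libraries lay below the uncultured one. D had the higher sum in 5 of the 6 matched cultures, MP at day 4 being the exception with 66.3 FPKM in D and 68.0 FPKM in N, the library with the high macrophage markers.

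**Figure D1:**
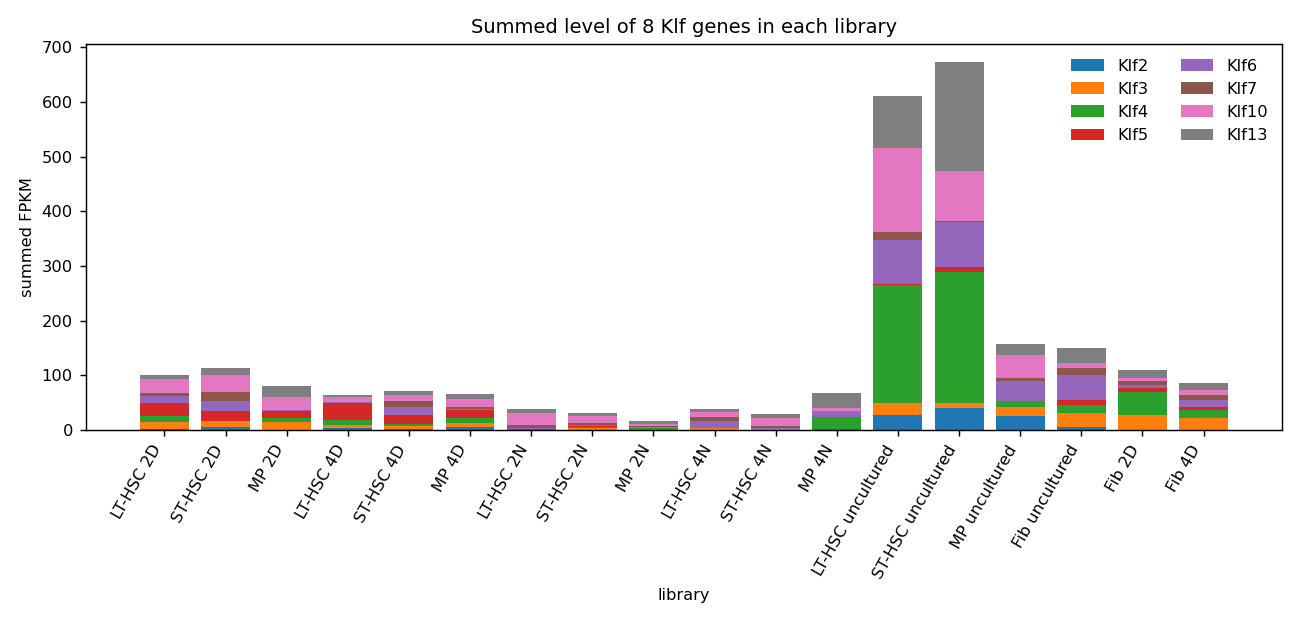
Summed FPKM of the 8 Klf genes in each library (vertical axis), stacked by gene, with the D, N and uncultured blood libraries from left to right and the fibroblasts by time at the right. Uncultured LT-HSC and ST-HSC reach 611 and 672 FPKM, while no cultured blood library passes 113 FPKM.

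The make-up of the sum also differed between conditions. Klf4 led in the stem cells when uncultured, with 35.1% of the summed FPKM in LT-HSC and 35.7% in ST-HSC. In uncultured MP it made up 6.78%, and Klf10 led with 26.5%. Klf10 led in 8 of the 15 blood libraries, more than any other member. By median level the order in the D libraries was Klf10 (19.6 FPKM), Klf5 (17.6), Klf13 (8.64), Klf3 (8.51), Klf6 (7.77), Klf4 (7.55), Klf7 (4.19) and Klf2 (2.61). In the N libraries it was Klf10 (11.3 FPKM), Klf13 (6.70), Klf7 (3.77), Klf6 (1.93), Klf4 (0.828) and Klf3 (0.478), with the medians of Klf5 and Klf2 listed at 0. In the uncultured libraries it was Klf4 (214 FPKM), Klf13 (95.9), Klf10 (91.2), Klf6 (80.4), Klf2 (26.6), Klf3 (17.0), Klf7 (5.20) and Klf5 (2.35). Neighbours in these orders overlapped in range, apart from Klf2 (24.8 to 40.7 FPKM) and Klf3 (8.43 to 23.2 FPKM) in the uncultured libraries.

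**Figure D2:**
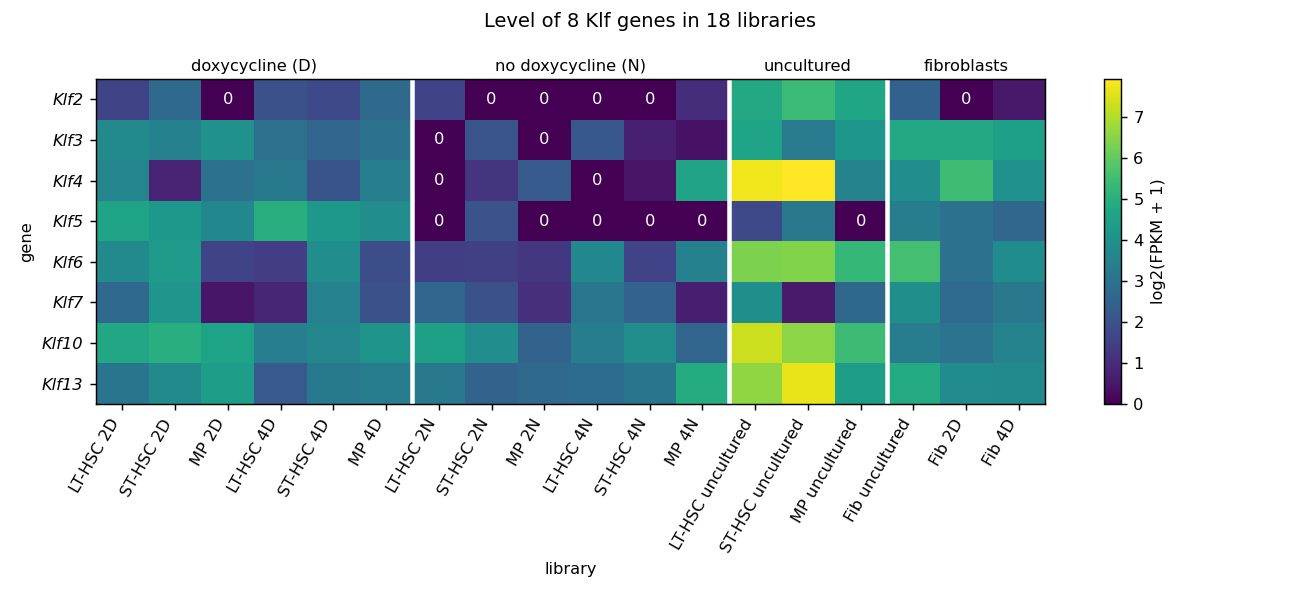
Level of each Klf gene as log2(FPKM + 1) (colour) in all 18 libraries, with D, N and uncultured blood libraries and then fibroblasts from left to right; a printed 0 marks a value listed at 0. The brightest cells are Klf4, Klf13 and Klf10 in uncultured stem cells, and Klf5 lies at 11.9 to 31.0 FPKM under D and at 0 to 3.11 FPKM under N.

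Cells cultured without doxycycline were compared with uncultured cells. Klf2, Klf3, Klf4, Klf6, Klf10 and Klf13 fell in N libraries, which is 6 of the 8 genes, while 3.08% of all 12060 genes tested were called lower. None of the 8 rose, while 5.8% of all genes were called higher and 8.89% in either direction. The test was limma on log2(FPKM + 1) with cell type as a block, with p-values adjusted by the Benjamini-Hochberg method over all genes tested. In such libraries, less RNA per cell and fewer cells that make the RNA cannot be told apart.

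Klf4 (ENSMUSG00000003032), the reprogramming factor, had 0, 1.33 and 3.76 FPKM at day 2 and 0, 0.329 and 22.6 FPKM at day 4 in N cultures of LT-HSC, ST-HSC and MP, against 214, 240 and 10.7 FPKM in the uncultured cells of these types. The LT-HSC and ST-HSC levels were high when uncultured and near 0 in N, whereas MP was low when uncultured and passed that level in 1 N library, so the groups overlapped. The fitted log2 difference was -5.00 ± 1.21 (SE, limma adjusted p = 0.0333). Without MP the difference was -7.43, and without LT-HSC it was -3.62 and no longer called (limma adjusted p = 0.194).

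Klf2 (ENSMUSG00000055148), the quiescence factor of lymphocytes, was listed at 0 in 4 of 6 N libraries and reached 2.04 FPKM at most. The uncultured LT-HSC, ST-HSC and MP libraries had 26.6, 40.7 and 24.8 FPKM. All 3 cell types were alike here and the groups did not overlap. The log2 difference was -4.51 ± 0.58 (SE, limma adjusted p = 0.00291).

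Klf10 (ENSMUSG00000037465), first described as a TGF-β inducible early gene, had 4.72 to 21.7 FPKM with a median of 11.3 in N libraries, against 153, 91.2 and 41.6 FPKM in uncultured LT-HSC, ST-HSC and MP. The groups did not overlap, and the log2 difference was -2.95 ± 0.38 (SE, limma adjusted p = 0.00305). Klf6 (ENSMUSG00000000078), an early-response activator, had 1.42 to 12.04 FPKM with a median of 1.93 in N libraries, against 80.4, 83.7 and 37.6 FPKM in the same uncultured types. Again the groups lay apart, with a log2 difference of -3.84 ± 0.66 (SE, limma adjusted p = 0.0110).

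Klf13 (ENSMUSG00000052040), a Sin3-recruiting factor known for control of the chemokine gene Ccl5 in T cells, had 4.77 to 28.4 FPKM with a median of 6.70 in N libraries, against 95.9, 200 and 20.3 FPKM in uncultured LT-HSC, ST-HSC and MP. The highest N value lay above uncultured MP and came from MP at day 4, the library with the high macrophage markers, as did the highest N value of Klf4. The log2 difference was -3.02 ± 0.72 (SE, limma adjusted p = 0.0304). Klf3 (ENSMUSG00000029178), the CtBP-recruiting repressor, had 0 to 3.47 FPKM in N libraries, against 23.2, 8.43 and 17.0 FPKM in uncultured LT-HSC, ST-HSC and MP. It lay lower in every N library, with a log2 difference of -3.11 ± 0.67 (SE, limma adjusted p = 0.0216). In all, 4 of the 8 genes (Klf2, Klf3, Klf6 and Klf10) had N and uncultured groups that did not overlap, against 12% of all genes tested.

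The remaining pair did not pass. Klf5 (ENSMUSG00000005148), a self-renewal factor of embryonic stem cells and epithelia, was listed at 0 in 5 of 6 N libraries, and its uncultured levels of 2.35, 8.18 and 0 FPKM in LT-HSC, ST-HSC and MP were low as well (log2 difference -1.31 ± 0.67, limma adjusted p = 0.239). Klf7 (ENSMUSG00000025959), a factor known from neurons, had 0.601 to 7.62 FPKM in N libraries, against 14.5, 0.499 and 5.20 FPKM in uncultured LT-HSC, ST-HSC and MP. Its uncultured levels differed widely between cell types, and the log2 difference was -0.41 ± 0.65 (SE, limma adjusted p = 0.716).

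The calls depended on which cell types were included. Without LT-HSC, Klf2 and Klf10 kept their calls, and 145 of 11810 genes were called in all. Without ST-HSC only Klf10 did, with 52 of 11962 genes called, and without MP all but Klf3 did, with 1194 of 12080 genes called. For Klf6, Klf3 and Klf13 the log2 difference without LT-HSC was -3.88, -2.91 and -2.73 (limma adjusted p = 0.0570, 0.0949 and 0.163). The sizes of Klf4 and Klf13 depended most on the cell type left out. Klf4 ran from -7.43 without MP to -3.62 without LT-HSC, and Klf13 from -4.22 without MP to -2.11 without ST-HSC. Each of the 6 genes kept its direction in these fits. Without the N library of MP at day 4 all 6 kept their calls, with log2 differences of -5.75 for Klf4 and -3.53 for Klf13 (limma adjusted p = 0.0158 and 0.0126).

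The D libraries were set against the same uncultured libraries, so the 2 comparisons share them. Klf2, Klf4, Klf6, Klf10 and Klf13 fell in D and Klf5 rose, against 6.17% of all 12539 genes tested called lower, 9.16% called higher and 15.3% called in either direction. Klf2 had 0 to 5.59 FPKM with a median of 2.61 in D libraries, all under the 24.8 to 40.7 FPKM of uncultured cells. Klf6 had 1.73 to 18.2 FPKM with a median of 7.77, and Klf10 had 9.54 to 31.0 FPKM with a median of 19.6. Both lay under every uncultured library. The log2 differences were -3.16 ± 0.63 for Klf2, -3.20 ± 0.56 for Klf6 and -2.17 ± 0.51 for Klf10 (SE, limma adjusted p = 0.0106, 0.00636 and 0.0206).

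Klf4, itself one of the doxycycline-inducible transgenes, was also lower in D. In D cultures of LT-HSC, ST-HSC and MP it had 11.2, 0.704 and 6.93 FPKM at day 2 and 8.16, 3.20 and 9.55 FPKM at day 4, against 214, 240 and 10.7 FPKM uncultured. FPKM does not separate transgene from endogenous transcripts. Every D value lay below the uncultured library of its cell type, and the log2 difference was -3.73 ± 0.90 (SE, limma adjusted p = 0.0218). Klf13 had 3.64 to 20.0 FPKM in D with a median of 8.64, just clear of the 20.3 FPKM of uncultured MP (log2 difference -2.88 ± 0.66, limma adjusted p = 0.0177).

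Klf5 moved the other way. It had 11.9 to 31.0 FPKM with a median of 17.6 in D libraries, against 2.35, 8.18 and 0 FPKM in uncultured LT-HSC, ST-HSC and MP, and the groups did not overlap. The log2 difference was 2.62 ± 0.55 (SE, limma adjusted p = 0.0130). Klf3 and Klf7 were not called, with log2 differences of -0.72 ± 0.49 and -0.13 ± 0.95 (limma adjusted p = 0.334 and 0.939). Without LT-HSC only Klf6 kept its call, without ST-HSC Klf5 and Klf6 did, and without MP all but Klf5 did. All 6 kept their direction. Without LT-HSC the log2 difference was -3.24 for Klf2, -3.42 for Klf4, 2.40 for Klf5, -1.64 for Klf10 and -2.35 for Klf13 (limma adjusted p = 0.0829, 0.162, 0.123, 0.147 and 0.147). Over all genes, 361 of 12431 were called without LT-HSC, 1029 of 12338 without ST-HSC and 1207 of 12503 without MP, against 1922 of 12539 with all 3 types. The D and uncultured groups did not overlap for Klf2, Klf5, Klf6, Klf10 and Klf13, 5 of the 8 genes, and for 16.7% of all genes tested.

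**Figure D3:**
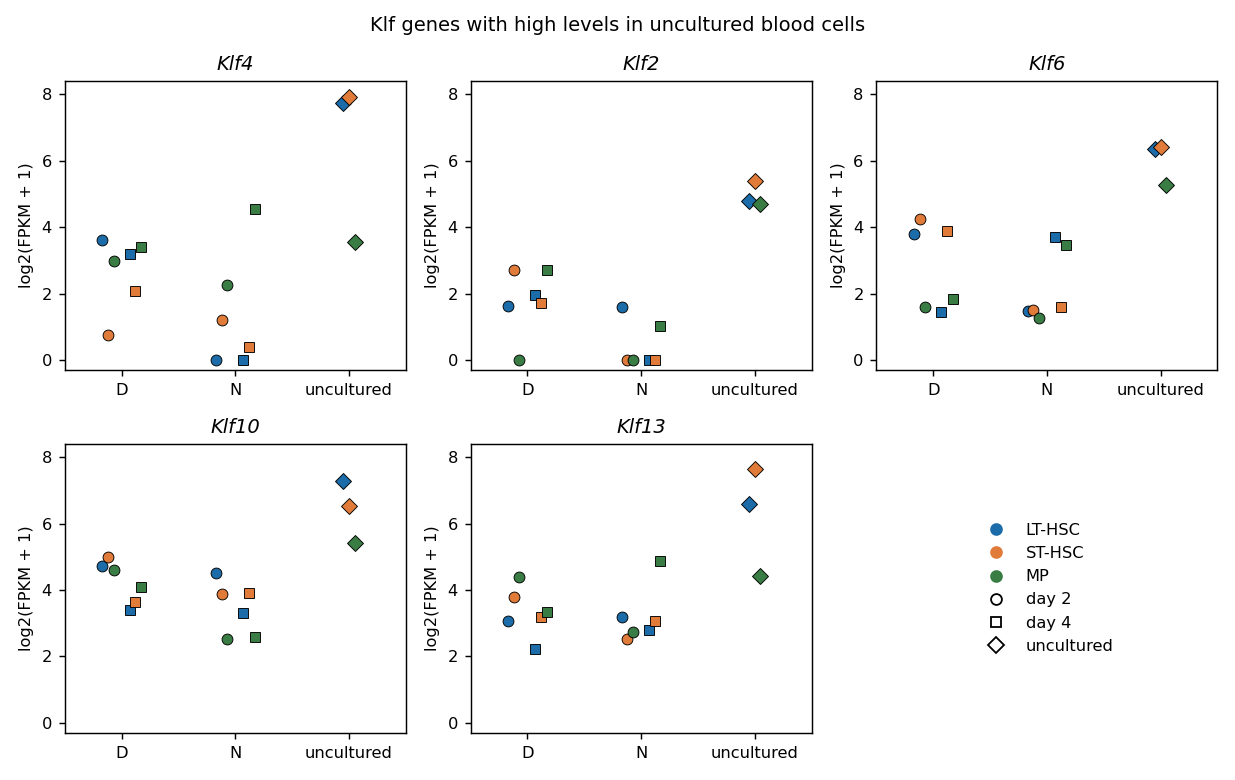
Level as log2(FPKM + 1) of the 5 Klf genes that fell against uncultured cells in both D and N libraries; each point is 1 library, coloured by cell type, with circles for day 2, squares for day 4 and diamonds for uncultured cells. The diamonds of Klf2, Klf6 and Klf10 lie above every cultured point, while for Klf4 and Klf13 the uncultured MP diamond lies within or close to the cultured range.

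Genes outside the family moved beside these falls. Of 17 immediate early genes, which cells switch on within minutes of a stimulus, 15 were tested. In D libraries 13 fell against uncultured cells (median log2 difference -3.94, all genes 0.23). In N libraries 14 fell (median -4.29, all genes 0.17), and none rose in either. Of all genes tested, 6.17% were called lower in D and 3.08% in N. Without LT-HSC, 12 of 15 fell in D (median -3.84) and 10 of 15 in N (median -4.11). Their summed level was 151 to 705 FPKM in D, 182 to 312 FPKM in N and 5171, 5686 and 1976 FPKM in uncultured LT-HSC, ST-HSC and MP. Atf3, a stress-response factor, had 0 to 5.42 FPKM in D, 0 to 7.41 FPKM in N and 1045, 817 and 161 FPKM in the same uncultured types. Its lowest uncultured level was in MP, as for Klf2, Klf4, Klf6, Klf10 and Klf13. Fos and Egr1 were also lowest in MP among uncultured cells, at 676, 404 and 323 FPKM and at 129, 75.1 and 47.7 FPKM in these types. Fos reached at most 46.0 FPKM in D and 21.1 FPKM in N, and Egr1 15.5 and 12.6 FPKM. The AP-1 subunit Jun had 4.75 to 13.7 FPKM in D, 0 to 1.54 FPKM in N and 97.2, 141 and 109 FPKM in these uncultured types, which lie close together, as for Klf2. The part of the immediate early response in the Klf levels was not tested.

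Cell type markers also differed between these groups. Their counts of calls stand beside 6.17% of all genes called lower in D and 3.08% in N. The 7 macrophage markers summed to 1.95 to 78.8 FPKM in D, 129 to 2150 FPKM in N and 374 to 799 FPKM in uncultured cells. The 8 granule and myeloid progenitor genes summed to 1.83 to 142 FPKM in D, 140 to 35015 FPKM in N and 1631 to 59369 FPKM in uncultured cells. Of the macrophage markers, Cx3cr1, Emr1 and Mrc1 were listed at 0 in every D library, and Cx3cr1 in every N library too. Of the granule genes, 7 of 8 fell in D (median log2 difference -7.35) and none was called in N (median -2.03). Without LT-HSC, 2 of 8 fell in D and the N median was 0.83. Among stem cell markers, Kit (-1.77), Flt3 (-2.19) and Cd48 (-3.42) fell in D and Ly6a (-2.43) fell in N, each as a log2 difference, and none of these calls was kept without LT-HSC. Of the erythroid markers, Klf1 and Car2 fell in D, of 4 tested, and none of 3 tested was called in N; without LT-HSC neither kept its call. The part of these cells in the Klf levels was not tested.

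The promoters of 4 of the 5 genes that fell in both comparisons are shown because these genes were called lower in both D and N than in uncultured cells; RefSeq sequences matched 6 of the 8 genes. Each is the 250 bases before the start of the gene on its own strand, in build GRCm38.p6, whereas the FPKM values were made on mm9. Capitals mark GC boxes (GGGCGG or CCGCCC), a binding site of Sp and Klf proteins, and in Klf2 the MEF2 box as well.
Klf2 chr8:72318812-72319061, plus strand: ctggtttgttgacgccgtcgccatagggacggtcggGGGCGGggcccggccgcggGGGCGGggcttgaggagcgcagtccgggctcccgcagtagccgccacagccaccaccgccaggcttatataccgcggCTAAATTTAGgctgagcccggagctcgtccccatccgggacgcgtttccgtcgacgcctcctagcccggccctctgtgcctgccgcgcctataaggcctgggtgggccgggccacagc
Klf4 chr4:55532476-55532725, minus strand: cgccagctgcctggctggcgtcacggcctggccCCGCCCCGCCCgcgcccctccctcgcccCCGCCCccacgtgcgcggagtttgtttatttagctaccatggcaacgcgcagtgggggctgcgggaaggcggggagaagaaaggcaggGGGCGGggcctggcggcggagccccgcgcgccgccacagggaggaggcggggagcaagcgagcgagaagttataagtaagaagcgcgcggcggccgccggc
Klf6 chr13:5861239-5861488, plus strand: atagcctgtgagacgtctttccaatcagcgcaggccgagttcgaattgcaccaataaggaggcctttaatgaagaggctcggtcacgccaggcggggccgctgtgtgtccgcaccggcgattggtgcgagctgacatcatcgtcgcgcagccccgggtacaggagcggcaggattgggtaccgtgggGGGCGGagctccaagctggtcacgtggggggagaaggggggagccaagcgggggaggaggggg
Klf13 chr7:63938916-63939165, minus strand: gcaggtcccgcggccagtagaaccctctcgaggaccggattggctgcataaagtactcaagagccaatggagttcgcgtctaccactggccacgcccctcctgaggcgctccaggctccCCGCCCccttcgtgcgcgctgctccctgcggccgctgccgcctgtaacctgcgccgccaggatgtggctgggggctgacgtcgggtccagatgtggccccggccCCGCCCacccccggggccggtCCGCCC
Counting overlaps and both strands, Klf2 held 2 GC boxes, Klf4 held 4, Klf6 held 1 and Klf13 held 3. All 6 members with a sequence held a GC box, as did 32.7% of 32851 promoter windows. The CACCC box (CACCC or GGGTG) occurred 1 time each in Klf2 and Klf13 and 0 times in Klf4 and Klf6. Of all windows, 52.0% held one. The MEF2 box began 118 bases before the start of Klf2; MEF2 factors are known to switch on Klf2 through it in endothelial cells and T cells, and 2.9% of the promoter windows held one. The 6 windows held no serum response element and no AP-1 site (TGANTCA), found in 1.5% and 6.7% of all windows.

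Induction was compared with culture alone in the 6 pairs of D and N libraries of the same cell type and day. Klf5 and Klf3 rose, and none of the 8 fell, against 4.53% of all 12254 genes tested called higher, 4.44% called lower and 8.97% called in either direction. These 2 were also the only members whose D and N groups did not overlap, which was so for 5.09% of all genes tested.

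At day 2, Klf5 had 23.1 FPKM in D and 0 in N in LT-HSC, 17.7 in D and 3.11 in N in ST-HSC, and 11.9 in D and 0 in N in MP. At day 4 it had 31.0, 17.5 and 13.7 FPKM in D cultures of LT-HSC, ST-HSC and MP and was listed at 0 in all 3 N cultures. LT-HSC had the highest D level at both days and MP the lowest. The fitted log2 difference was 3.93 ± 0.43 (SE, limma adjusted p = 0.000883), with D higher in 6 of 6 pairs. Its size depends on the added 1 because most N values are 0: it was 6.68 with 0.1 added and 2.11 with 5 added, called under both.

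Klf3 at day 2 had 12.5 FPKM in D and 0 in N in LT-HSC, 10.2 in D and 3.21 in N in ST-HSC, and 15.1 in D and 0 in N in MP. At day 4 it had 6.55 FPKM in D and 3.47 in N in LT-HSC, 4.98 in D and 0.635 in N in ST-HSC, and 6.86 in D and 0.320 in N in MP. D was higher in 6 of 6 pairs, by the least in LT-HSC at day 4. The D levels at day 4 were lower than at day 2 in each cell type, and the uncultured levels of 8.43 to 23.2 FPKM lay in or above the D range. The log2 difference was 2.40 ± 0.51 (SE, limma adjusted p = 0.0189). The call was lost without LT-HSC day 2, MP day 2 or MP day 4, where the log2 difference was 2.12, 2.07 and 2.36 (limma adjusted p = 0.0570, 0.0634 and 0.0541). The number of all genes called in these fits was 678, 529 and 630, against 1099 with all pairs.

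**Figure D4:**
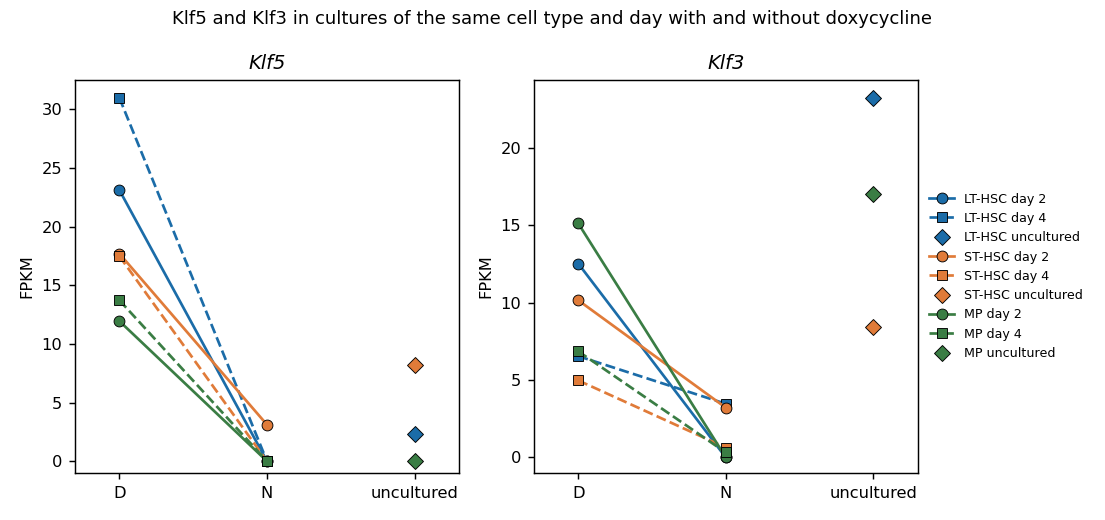
FPKM of Klf5 (left) and Klf3 (right) in D and N libraries, joined by a line for each cell type and day, with uncultured libraries as diamonds. All 6 lines of each gene run higher in D, and the uncultured diamonds lie at 0 to 8.18 FPKM for Klf5 but at 8.43 to 23.2 FPKM for Klf3.

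The other 6 members did not pass. Klf2 was higher in D in 5 pairs and at 0 in both libraries of MP day 2 (log2 difference 1.35 ± 0.49, limma adjusted p = 0.126). Klf10 was higher in D in 5 of 6 pairs, at 9.54 to 31.0 FPKM in D and 4.72 to 21.7 FPKM in N (0.78 ± 0.37, limma adjusted p = 0.236). Klf4 was higher in D in both LT-HSC pairs, where N was listed at 0, and lower in D in ST-HSC day 2 and MP day 4. In MP day 4 it had 9.55 FPKM in D and 22.6 FPKM in N. Its log2 difference was 1.26 ± 0.65 (limma adjusted p = 0.280). Klf6, Klf7 and Klf13 had log2 differences of 0.64, 0.28 and 0.14 (limma adjusted p = 0.646, 0.812 and 0.886), with D higher in 4, 4 and 3 of 6 pairs.

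**Figure D5:**
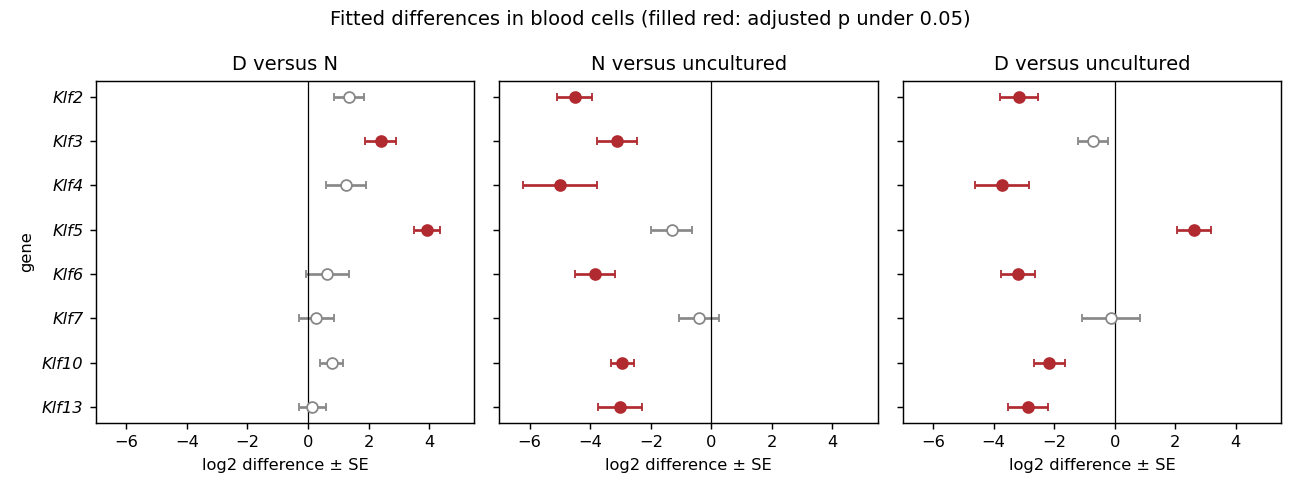
Fitted log2 difference with its standard error for each Klf gene in D against N, N against uncultured and D against uncultured blood libraries; filled red points passed an adjusted p of 0.05. Klf5 and Klf3 are the filled points right of 0 in D against N, and Klf5 is the only one right of 0 against uncultured cells.

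Fibroblast markers were looked at beside the rise of Klf5 and Klf3, since fibroblasts held both genes, at 5.13 to 8.96 FPKM for Klf5 and 20.9 to 26.5 FPKM for Klf3. The 12 markers summed to 122 to 417 FPKM in D and 9.63 to 49.3 FPKM in N, against 865 to 13683 FPKM in fibroblasts. Of the 5 markers tested in D against N, 2 rose and 2 fell (list median 0.16, all genes 0.02). Of all genes tested, 4.53% were called higher and 4.44% lower. Most of the D sum was the secreted protein Fstl1, at 84.8 to 414 FPKM in D and 0 to 35.3 FPKM in N. The defining collagen Col1a1 was at 1.10 FPKM or less in every D library, Col1a2 at 32.3 FPKM at most, and Dcn, Lum and Postn were listed at 0 in all of them. The macrophage and granule gene sums given above were lower in D than in N as well, with an overlap for the granule genes. The part of these markers in the Klf levels was not tested.

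Known partners and targets were read from lists chosen with earlier results of these data known. Their counts in D against N, here and in the next paragraph, stand beside 4.53% of all genes called higher and 4.44% called lower. Among 8 upstream regulators of Klf2 and Klf4, Foxo1 rose in D against N and none fell (list median 0.06, all genes 0.02). Foxo1, a forkhead factor that drives Klf2 in T cells, had 6.37 to 86.4 FPKM in D and 0.369 to 4.78 FPKM in N (log2 difference 3.14 ± 0.48, limma adjusted p = 0.00412). Of 6 tested targets of Klf2, S1pr1 and Cdkn1a rose and Itgb7 fell (list median 1.13, all genes 0.02). S1pr1, a receptor that lets lymphocytes leave tissues, had 4.37 to 57.5 FPKM in D and 0 to 1.43 FPKM in N, a log2 difference of 3.89 ± 0.54 (limma adjusted p = 0.00278). Cdkn1a, the cell cycle inhibitor p21, rose by 1.52 and the integrin chain Itgb7 fell by 2.64 on the log2 scale (limma adjusted p = 0.0166 and 0.0115).

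Epithelial genes, a class that includes known targets of Klf4 and Klf5, had 5 of 9 tested members higher in D than in N and none lower (list median 2.00, all genes 0.02). These 5 were the junction genes Ocln (2.70), Dsp (3.42), Perp (2.83) and Cldn3 (2.70) and the adhesion molecule Epcam (2.00), each as a log2 difference. The 12 listed epithelial genes summed to 37.5 to 394 FPKM in D and 0.995 to 196 FPKM in N. In uncultured LT-HSC, ST-HSC and MP, where Klf5 was low, they summed to 287, 255 and 38.1 FPKM. Of 10 tested genes of TGF-β signalling, in which Klf10 acts, the ligand Tgfb2 (3.06), the latent TGF-β binder Ltbp1 (3.27) and the shared effector Smad4 (1.16) rose and none fell (list median 0.94). Of 13 cofactors and ubiquitin ligases of Klf proteins, the ligase Smurf1 alone rose (1.37, limma adjusted p = 0.0390) and none fell (list median 0.21). That count is close to the share of all genes. Of 14 tested immediate early genes, Jun (2.61), Btg2 (2.47) and Nr4a1 (2.18) rose and none fell (list median 0.55). Of the 10 genes of the self-renewal circuit found in the table, which Klf2, Klf4 and Klf5 regulate in embryonic stem cells, none was high enough to test in D against N, and Nanog was listed at 0 in all libraries.

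Against uncultured cells, other members of these lists passed. Their counts stand beside 9.16% of all genes called higher and 6.17% called lower in D, and 5.8% higher and 3.08% lower in N. S1pr1 and Cdkn1a fell in N (log2 differences -3.36 and -3.73, limma adjusted p = 0.0357 and 0.0385), 2 of 6 tested targets of Klf2, while none of the 6 was called in D (list medians -1.06 in D and -0.98 in N). Mapk7, the kinase ERK5 that acts upstream of MEF2 and Klf2, rose in D and in N (2.56 and 2.37), and Mef2d fell in both (-1.50 and -1.28). Among the 9 Klf genes that are not members, Klf1 and Klf11 fell in D (-3.28 and -2.87), and Klf9 and Klf11 fell in N (-2.22 and -3.31), of 4 tested in each. Of the TGF-β genes, Tgfb2, Smad4 and Ltbp1 rose and the corepressors Skil and Tgif1 fell in D, of 11 tested, and Skil and Tgif1 fell in N, of 9 tested. Of the epithelial genes, Dsp rose in D (2.98), of 10 tested, a share close to that of all genes, and Krt18 fell in N (-3.19), of 6 tested. Of the genes named in this paragraph, Klf11 kept its call without LT-HSC in D and in N and Krt18 did in N (-4.41), and no other call was kept. Klf1, the erythroid member, had 141 FPKM in uncultured MP and 3.68 FPKM or less elsewhere. None of the 4 tested Sp genes, the closest relatives of the family, was called in D against N, N against uncultured or D against uncultured.

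Between days and between blood cell types no member passed. For day 4 against day 2, where 2.11% of 12254 genes were called, the smallest unadjusted p was that of Klf10 (log2 difference -0.71 ± 0.30, limma adjusted p = 0.277). For MP against the stem cells, where 0.297% of 12453 genes were called, it was again Klf10 (-0.77 ± 0.33, limma adjusted p = 0.333). Klf4 in MP lay far below both stem cell types when uncultured, but at 22.6 FPKM it was the highest of the N libraries. For ST-HSC against LT-HSC, 0% of 12419 genes were called in limma, with 811 at an unadjusted p under 0.05, and the largest difference was that of Klf13 (0.47 ± 0.38, limma adjusted p = 0.860) beside Klf5 at the same 0.47. Whether the D minus N difference changed between MP and stem cells, or between day 4 and day 2, was tested as an interaction, and 0% of 12254 genes were called in either (1018 and 511 at an unadjusted p under 0.05). The nearest members were Klf10 for cell type (1.51 ± 0.64, limma adjusted p = 0.591) and Klf13 for day (-1.61 ± 0.77, limma adjusted p = 0.989).

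In fibroblasts the highest member was Klf6 in uncultured cells, Klf4 at day 2 of D and Klf3 at day 4 of D. Klf3 had 26.5 FPKM uncultured, 26.2 at 2 days and 20.9 at 4 days of D culture. Klf4 had 13.6, 42.7 and 15.1 FPKM at these times, the day 2 value being the highest of all D libraries. Klf6 had 45.8, 6.97 and 13.4 FPKM and Klf2 had 4.54, 0 and 0.456 FPKM, both lower in the D libraries. Klf5 had 8.96, 6.94 and 5.13 FPKM, Klf7 14.5, 5.82 and 8.06, Klf10 9.00, 7.06 and 10.6, and Klf13 27.4, 13.1 and 12.6. With 1 library at each time these changes carry no test.

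The change from uncultured to D culture was compared between fibroblasts and blood cells in 1 fit, where 0.944% of 13235 genes were called. No member passed. Klf4 in fibroblasts was 1.58 and 0.14 log2 units above its uncultured level at days 2 and 4 of D, while all 6 D blood libraries were below theirs, a difference of 4.59 ± 1.82 (SE, limma adjusted p = 0.319). Klf5 in fibroblasts differed from its uncultured level by -0.33 and -0.70 log2 units, while all 6 D blood libraries were above theirs, a difference of -3.13 ± 0.999 (SE, limma adjusted p = 0.209).

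The genes whose pattern was most like each member were named over the 15 blood libraries by Pearson's r of log2(FPKM + 1), among genes averaging 5 FPKM or more. Groups of these libraries share a culture condition or cell type, so r is a description. Klf2 was most like Jun (0.937), the phosphatase gene Dusp1 (0.904) and Fosb (0.894), all immediate early genes. Klf6 was most like Ier2 (0.883), Isoc2b (0.878) and Ppp1r15a (0.872), and Klf13 most like the cytokine feedback gene Socs3 (0.929), Alkbh6 (0.918) and the survival gene Mcl1 (0.890). Klf10 stood nearest to Rps14 (0.935), Gm5805 (0.931) and the nuclear receptor Nr4a2 (0.926), and Klf4 to Rabgef1 (0.882), the cell cycle inhibitor Cdkn1a (0.876) and Uap1 (0.866). Klf5 had the highest value of all, with the activin and BMP receptor Acvr1 (0.959), then Camk2d (0.941) and Mpzl1 (0.933). Klf3 was most like Nedd9 (0.895), the lamin gene Lmna (0.856) and Gm1673 (0.852), and Klf7 most like Pick1 (0.813), Bcl11a (0.763) and 2310001H17Rik (0.749). Between members, Klf4 and Klf13 were most alike (0.832), then Klf2 and Klf10 (0.796) and Klf2 and Klf6 (0.795). The lowest value was that of Klf4 and Klf7 (-0.253), and Klf5 and Klf7 were not alike (-0.002).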

How the data were processed

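The values are the authors' deposited FPKM, 1 per gene and library, made with TopHat and Cufflinks on mm9 per the submitters' processing notes; tool versions and annotation are not given in the sources at hand. Depth is unknown, no interval that needs it is given, and a 0 is described as listed at 0. Symbols on several entries (158) were summed. Members and lists were chosen with earlier results of these data known.

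Genes averaging 1 FPKM or more in a fit were tested on log2(FPKM + 1), which understates changes of low genes, with limma 3.58.1 (R 4.3.3; trend and robust empirical Bayes), two-sided, with adjustment over all tested genes and a threshold of 0.05. Blocks were the pair of cell type and day for D against N, the cell type against uncultured cells, and the condition between cell types. All 8 members are named in each main comparison, and list members by smallest adjusted p. Fstl1 and Nanog were singled out after their values were seen. Of the stem cell markers, 1 is not reported here. Alternatives were other added constants, filters, scalings, fit options, no block, and each block left out. Promoters come from RefSeq and finger sequences from GENCODE; the domain was found by its C2H2 pattern. Python 3.11.15, pandas 2.3.3 and matplotlib 3.10.9 made tables and figures.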

Additional observations from a re-analysis of the deposited data

Results flagged for a closer look

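Klf7 and Klf13 stood out because cell types moved opposite ways at both days in the same contrast; these differences between cell types were not tested. Klf7 in N against uncultured cells differed by -1.38 (day 2) and -0.85 (day 4) log2 units in LT-HSC and by -1.56 and -1.95 in MP, but by 1.37 and 1.92 in ST-HSC. In D against uncultured cells Klf7 differed by -1.25 and -3.12 in LT-HSC and by -2.16 and -0.68 in MP, but by 3.55 and 2.92 in ST-HSC. All of these ST-HSC values are set against 1 library, uncultured ST-HSC, in which Klf7 had 0.499 FPKM, against 14.5 and 5.20 FPKM in uncultured LT-HSC and MP. Klf13 in D against N differed by -0.11 at day 2 and -0.58 at day 4 in LT-HSC, and by 1.27 and 0.12 in ST-HSC.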

How the results depend on the processing

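Over the 6 fits of D against N that each leave out 1 pair, 1 to 2 Klf genes were called; leaving out 1 cell type gave 1 to 5 calls for N against uncultured and 1 to 5 for D against uncultured. Leaving out the N library of MP at day 4, chosen after seeing the data, gave 6 calls for N against uncultured. Klf7, called in none of these comparisons, changed sign in such fits of each. It ran from -0.10 to 0.80 in D against N, from -1.44 to 0.27 in N against uncultured and from -1.80 to 0.90 in D against uncultured. Klf13 changed sign only in D against N, where it was not called and ran from -0.17 to 0.47. Under the other settings, 2 genes were called in each fit of D against N, 4 to 6 in N against uncultured and 5 to 6 in D against uncultured. With 0.1 added before the log, Klf3 in N (-4.71, limma adjusted p = 0.0643) and Klf2 in D (-3.96, limma adjusted p = 0.0507) lost their calls against uncultured cells. Without a filter, Klf4 and Klf13 in N lost theirs (limma adjusted p = 0.0615 and 0.0604), and likewise without the trend and robust options (limma adjusted p = 0.0653 for both). The cause was not tested. The other comparisons called 0 Klf genes in limma under every setting run. D against N was fitted with the pair of cell type and day as a block, and 2 genes were also called with no block; the labels give no replicate numbers to pair by. Low values near 0 are limited by 25 cells a library and unknown depth.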
